A study of Mus musculus with 8 samples.

Results

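The genes described are the inhibitors of cyclin-dependent kinases (CDKs) and the retinoblastoma family, taken as a fixed list of 10 symbols: the Cip/Kip inhibitors Cdkn1a, Cdkn1b and Cdkn1c, the INK4 inhibitors Cdkn2a, Cdkn2b, Cdkn2c and Cdkn2d, and the pocket protein genes Rb1, Rbl1 and Rbl2. All 10 were found among the 17488 genes of the deposited table, and all 10 passed the filter on low values. Their levels were compared between neuroblastomas of 4 mice given panobinostat, an inhibitor of histone deacetylases, and of 4 mice given vehicle. Every animal was homozygous for TH-MYCN, a transgene that places human MYCN under the tyrosine hydroxylase promoter, and treatment started at about 6 weeks of age once a tumour measured 200 to 300 mm3. Panobinostat was given at 5 mg/kg in 2 doses, 24 h apart, and tumours were collected 4 h after the second. Each library is the whole tumour, stroma included, of 1 animal. The libraries are called vehicle 1 to 4 and panobinostat 1 to 4, and these numbers only name them.

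Cells pass from G1 into S phase when cyclin D with CDK4 or CDK6, and then cyclin E with CDK2, phosphorylate the pocket proteins pRB, p107 and p130 (Rb1, Rbl1 and Rbl2). Unphosphorylated pocket proteins bind E2F transcription factors and hold replication genes silent. INK4 proteins bind CDK4 and CDK6 and keep them from cyclin D, whereas Cip/Kip proteins bind assembled cyclin and CDK complexes. In neural crest tumours these brakes stand opposite MYCN, which drives cells into the cycle, and Cdkn1a is a widely used marker of the response to deacetylase inhibitors.

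Promoter windows are shown for 4 members, as 2 of the pairs within a family whose ratio differed between the groups: Cdkn1a and Cdkn1b of the Cip/Kip genes, and Rbl1 and Rbl2 of the pocket protein genes. Each window holds the 250 bases before an annotated start, 5′ to 3′ on the gene's strand (RefSeq, GRCm38.p6). For the Cdkn1 genes the capitals mark GC boxes (GGGCGG on either strand), the motif read by Sp1 and Sp3. For the Rbl genes capitals mark E2F-type motifs (TTTCCCGC, TTTCGCGC, TTTGCCGC or TTTGGCGC on either strand). No GC box overlaps an E2F-type motif in these windows. The windows are chr17:29093519-29093768 on the plus strand for the downstream of 2 annotated Cdkn1a starts, chr6:134920151-134920400 on the plus strand for Cdkn1b, chr2:157204535-157204784 on the minus strand for Rbl1 and chr8:91069807-91070056 on the plus strand for Rbl2.
Cdkn1a: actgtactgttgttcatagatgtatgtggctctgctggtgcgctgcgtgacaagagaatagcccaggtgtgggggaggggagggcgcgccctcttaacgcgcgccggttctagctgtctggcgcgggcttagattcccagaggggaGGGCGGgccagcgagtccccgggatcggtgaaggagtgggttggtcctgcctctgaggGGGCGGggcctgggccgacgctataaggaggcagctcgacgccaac
Cdkn1b: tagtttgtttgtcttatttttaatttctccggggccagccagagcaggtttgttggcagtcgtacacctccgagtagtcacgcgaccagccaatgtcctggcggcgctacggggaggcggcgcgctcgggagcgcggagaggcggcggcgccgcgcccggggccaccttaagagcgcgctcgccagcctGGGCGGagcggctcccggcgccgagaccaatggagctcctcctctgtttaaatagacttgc
Rbl1: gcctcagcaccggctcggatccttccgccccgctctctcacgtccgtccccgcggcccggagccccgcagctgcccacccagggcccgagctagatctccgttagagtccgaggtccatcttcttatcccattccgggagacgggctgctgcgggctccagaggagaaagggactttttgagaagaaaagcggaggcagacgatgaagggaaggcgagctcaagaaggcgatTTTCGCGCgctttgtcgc
Rbl2: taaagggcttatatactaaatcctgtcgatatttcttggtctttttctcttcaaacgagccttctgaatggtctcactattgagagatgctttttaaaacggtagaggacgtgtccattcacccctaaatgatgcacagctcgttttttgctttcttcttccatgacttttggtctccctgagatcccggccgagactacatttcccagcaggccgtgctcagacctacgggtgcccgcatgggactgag
The downstream Cdkn1a window held 2 GC boxes, beginning 104 and 46 bases before the start, and the upstream one held 0. Cdkn1b held 1, at 61 bases. GC boxes stood in 32.7% of 32851 windows of this length. The Rbl1 window held 1 E2F-type motif, at 18 bases, and the Rbl2 window held 0, against 1.86% of all windows. The windows differed in base composition, with 63.6% G and C in Rbl1 and 46.8% in Rbl2. Promoter entries were found for 8 members, all except Cdkn1c and Rb1. The E-box CACGTG, which MYC proteins bind, was in 0 of these members' windows, against 6.02% of all windows. Of the windows not shown, the upstream Cdkn2c window and the Cdkn2d window held 3 GC boxes each, and the Cdkn2b window held 0. The upstream Cdkn2a window held 2 GC boxes and 1 E2F-type motif. Rbl1 held 1 GC box as well. All of these are matches of letters only, and their relation to the changes was not tested.

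With panobinostat, 6 of the 10 members rose, 1 fell and 3 made no call. The 6 were Cdkn1a, Cdkn1c, Cdkn2b, Cdkn2c, Rb1 and Rbl2, and the 1 was Cdkn1b. Cdkn2b, with 2 of 4 vehicle libraries at 1 CPM, passed the filter through the treated group, and it is in every count of rises here. Over all 16157 genes tested 31.2% rose and 32.4% fell, so a call in either direction was common (63.7%). The same 7 members had groups that did not overlap, 6 higher and 1 lower, against 28.5% higher and 31.2% lower among all genes tested. The median log2 change of the members was 0.60, and that of all genes tested was -0.02. Tested against a 1.5-fold change 3 rose and 1 fell, where 30.9% of all genes tested passed in either direction. Without panobinostat 3 and 4, which had the highest sums of kidney and liver markers respectively, 4 rose and 1 fell. In that fit 23.4% of all genes tested rose and 25.0% fell. The tumours kept still held markers of other tissues, with 722 CPM of adrenal cortex in panobinostat 1 and 715 CPM of exocrine pancreas in panobinostat 2. Whether fewer cells of a type or less RNA per cell underlies a change cannot be told apart in whole tumours.

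**Figure D1:**
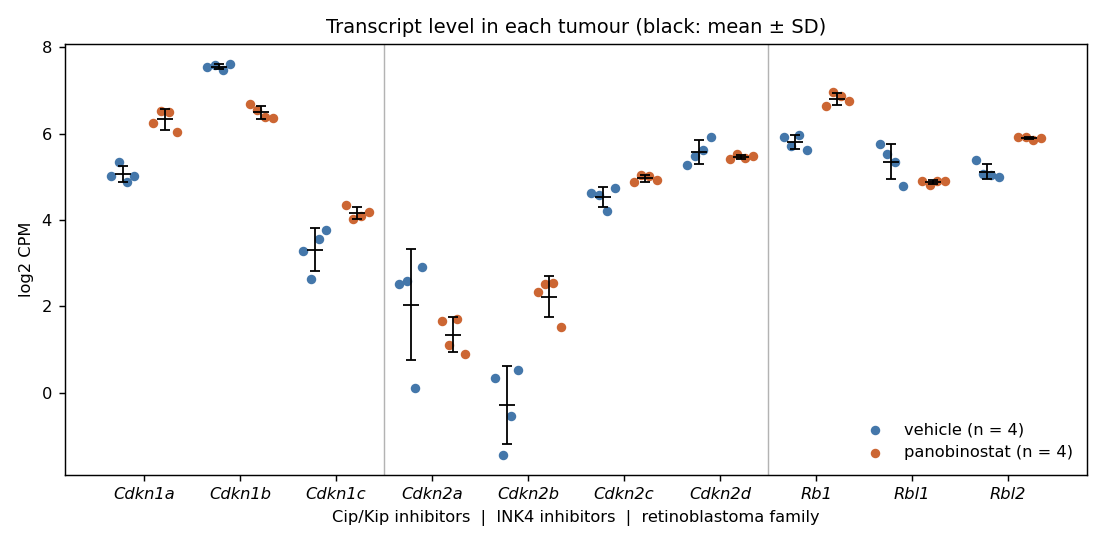
Level of each member in every tumour, in log2 CPM (vertical axis, a log scale), with 1 point per library and black bars for mean ± SD (n = 4 per group). The panobinostat points lie wholly above the vehicle points for 6 genes and wholly below them for Cdkn1b.

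The setting in which these levels were read differed between the groups. Read totals ran from 22055658 to 23830026 in the vehicle group and from 18664066 to 22235545 in the treated group, and 1 CPM was 19.3 to 22.6 reads. Sympathoadrenal markers, the labelled tissue, were present in every library (10 genes, 2824 to 3367 CPM summed with vehicle, 1389 to 1923 with panobinostat, 6 of 10 lower). Macrophage markers were higher in 9 of 10 cases (638 to 1216 and 3081 to 5511 CPM), and fibroblast and mural markers in 10 of 10 (1529 to 4900 and 8439 to 15296.5 CPM). All 8 adipocyte markers were higher (49.2 to 750 and 1197 to 1767 CPM). Of 5 tested adrenal cortex markers 5 were higher (9.02 to 11.2 and 39.4 to 2756 CPM), with Cyp11b2 at 0 in all vehicle libraries. At such vehicle sums a marker could pass the filter through the treated group alone, which favours a call of higher. Without the filter 8 of 8 adrenal cortex markers were higher, and with a minimum of 5 CPM 2 were tested and 2 were higher. Liver markers summed to 21.1 to 27.4 and 59.7 to 9007 CPM (3 of 3 tested higher). Exocrine pancreas markers gave 7.40 to 14.6 and 15.5 to 4398 (1 of 1), and kidney tubule 1.10 to 4.74 and 7.03 to 834 (2 of 3). Few of these markers passed the filter, and without it 8 of 8, 3 of 8 and 2 of 5 were higher. With weights from the recovered reads, 0 of 3 liver markers and 0 of 1 pancreas marker were higher. The high sums came from few tumours: liver 710 and 9007 CPM in panobinostat 3 and 4, pancreas 715 and 4398 in panobinostat 2 and 4, kidney 834 in panobinostat 3. Lymphocyte markers gave 23.1 to 95.2 and 115 to 155 CPM (2 of 3 tested higher, 2 of 9 without the filter). Endothelial sums (114 to 604 and 372 to 596 CPM, 2 of 10 higher) and Schwann cell sums (265 to 398 and 228 to 601 CPM, 6 of 10 higher, 1 lower) overlapped. Haemoglobin and erythroid genes made no call (0 of 5, 2358 to 3381 and 461 to 9633 CPM), which rested on panobinostat 1 with 9633 CPM: without it 5 of 5 were lower and their median went from -0.79 to -1.55. Immediate early genes of tissue handling were higher in 6 of 7 cases (126 to 216 and 268 to 325 CPM). The part of other cells in the changes below was not tested.

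Among the Cip/Kip genes, the transcript of p21 more than doubled while that of p27 was cut by about as large a factor. Cdkn1a, which encodes p21, the inhibitor that p53 induces, lies on chromosome 17 (29090976 to 29100727, plus strand, mm10). It stood at 32.6, 40.2, 29.4 and 32.6 CPM in vehicle 1 to 4 and at 76.4, 92.4, 90.4 and 65.3 CPM in panobinostat 1 to 4. The lowest treated tumour, panobinostat 4, was thus above the highest vehicle tumour. The fold change was 2.40 (95% interval 1.92 to 3.00), a log2 change of 1.26 (SE 0.14, limma, adjusted p = 7.07e-05).

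Cdkn1b encodes p27, the inhibitor of cyclin E with CDK2 that accumulates in cells leaving the cycle and that the SCF ubiquitin ligase with SKP2 removes. It lies on chromosome 6 (134920401 to 134925513, plus strand). It gave 187, 191, 176 and 197 CPM with vehicle and 103, 93.7, 83.7 and 82.0 CPM with panobinostat. The vehicle tumours lay close together (SD 0.07 in log2 CPM), and every treated tumour was far below them. The log2 change was -1.06 (SE 0.10, adjusted p = 2.24e-05, limma), a fold of 0.481 (95% interval 0.414 to 0.559). This was the one member that fell, and its direction was opposite to that of the other Cip/Kip genes.

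Cdkn1c, on chromosome 7 (143458339 to 143461050, minus strand), encodes p57, an imprinted inhibitor expressed from the maternal allele and abundant in the developing adrenal gland. Its level was 9.76, 6.18, 11.7 and 13.7 CPM with vehicle and 20.3, 16.3, 16.97 and 18.3 CPM with panobinostat. The groups did not overlap, but the gap between vehicle 4 and panobinostat 2 was small. Cdkn1c rose 1.803-fold (95% interval 1.24 to 2.61), a log2 change of 0.85 (SE 0.24, adjusted p = 0.0113, limma). The call was lost after quantile normalization (0.58, adjusted p = 0.0514) and without panobinostat 3 and 4 (0.87, adjusted p = 0.0658). Adrenal cortex markers summed to 722, 39.4, 1013 and 2756 CPM in panobinostat 1 to 4, and their part in the Cdkn1c level was not tested.

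Per kilobase of exon, the 3 Cip/Kip genes changed places. In vehicle tumours Cdkn1b made up 73.9% ± 0.757 of their summed CPM per kb, Cdkn1a 17.01% ± 2.12 and Cdkn1c 9.08% ± 2.73 (mean ± SD, n = 4). In treated tumours the shares were 38.6% ± 2.82, 44.2% ± 4.71 and 17.2% ± 2.33. Cdkn1a and Cdkn1b thus went from far apart to shares that overlapped in range (39.7% to 48.8% and 35.2% to 41.9%). With the longest transcript in place of all exons, Cdkn1a stood at 25.8% and 56.9% and Cdkn1b at 65.6% and 29.2%, and the treated ranges no longer overlapped (52.4% to 61.4% for Cdkn1a and 26.0% to 32.3% for Cdkn1b). The summed level per kb was 55.8 ± 2.66 with vehicle and 51.6 ± 4.25 with panobinostat, and with the longest transcript 62.9 ± 3.12 and 68.4 ± 6.40, so that the direction of the sum depended on the length used.

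**Figure D2:**
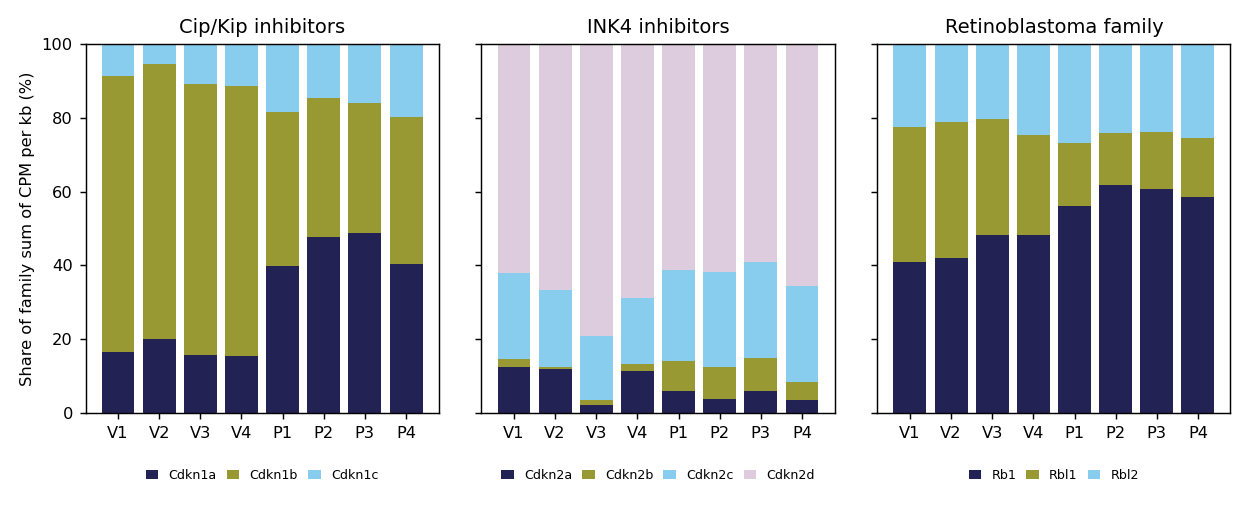
Share of each member in its family's summed CPM per kb of exon (vertical axis, percent), in vehicle (V1 to V4) and panobinostat (P1 to P4) tumours. In the left panel the Cdkn1b share is 73.1% to 74.6% in vehicle tumours and 35.2% to 41.9% in treated tumours.

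Ratios of family members within a tumour do not depend on the factor by which each library was scaled. A set of 6 was compared, each with a smallest possible p of 0.0286. The log2 ratio of Cdkn1a to Cdkn1b went from -2.48 ± 0.16 with vehicle to -0.17 ± 0.26 with panobinostat (mean ± SD, n = 4), a 4.98-fold shift (two-sided exact permutation p = 0.0286, adjusted p = 0.0343). That of Cdkn1b to Cdkn1c went from 4.24 ± 0.51 to 2.33 ± 0.15 with the same p-values (exact permutation). Cdkn1a and Cdkn1c could not be separated in this way: their log2 ratio was 1.75 ± 0.67 and 2.17 ± 0.34 (exact permutation p = 0.343, also after adjustment), and the vehicle range, 1.25 to 2.70, took in the whole treated range of 1.83 to 2.50. That overlap rested on vehicle 2: without it the vehicle range was 1.25 to 1.74, below all treated tumours, and the difference was 0.73 in place of 0.41 (exact permutation p = 0.0571).

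Of the 4 INK4 genes 2 rose, 0 fell and 2 made no call, beside 31.2% higher and 32.4% lower among all genes tested. Cdkn2a and Cdkn2b are neighbours on chromosome 4 (89274471 to 89294653 and 89306299 to 89311039, both on the minus strand). Cdkn2b encodes p15, an inhibitor that TGF-beta induces. It held 28, 7, 15 and 30 reads in vehicle 1 to 4 and 112, 110, 121 and 56 reads in panobinostat 1 to 4. All treated tumours were above all vehicle tumours, at counts that are low throughout. The log2 change was 2.51 (SE 0.46, adjusted p = 0.00111, limma), a fold of 5.70 with a wide 95% interval of 2.79 to 11.6. With a pseudocount of 1 CPM the log2 change was 1.61. Only 2 of 4 vehicle libraries reached 1 CPM, so this gene passed the filter through the treated group.

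Cdkn2a gives rise to 2 proteins from separate first exons, p16 of the INK4 class and p19ARF, which stabilises p53. Gene-level reads do not tell these apart. It held 130, 123, 24 and 160 reads with vehicle and 70, 41, 68 and 36 with panobinostat. Of the vehicle tumours 3 were above all treated tumours, and vehicle 3 was below them all. No call was made (log2 change -0.70, SE 0.57, 95% interval -1.99 to 0.59, adjusted p = 0.309, limma). Without vehicle 3 the change was -1.34 (SE 0.27, adjusted p = 0.00325, limma), so that 1 library decided the call. The 2 neighbours therefore gave a rise for Cdkn2b and a value below 0 for Cdkn2a in the same tumours, and the difference between them was not tested.

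Cdkn2c encodes p18, which with p19 of Cdkn2d is prominent in neural progenitors and young neurons. Cdkn2c lies on chromosome 4 too (109660876 to 109667189, minus strand), well apart from the Cdkn2a locus. It stood at 24.5, 23.9, 18.4 and 26.6 CPM with vehicle and 29.2, 32.9, 32.7 and 30.2 CPM with panobinostat. The rise was small, 1.35-fold (95% interval 1.09 to 1.66), although the groups did not overlap (log2 change 0.43, SE 0.14, adjusted p = 0.0191, limma). The call was lost, at log2 changes of 0.41, 0.41 and 0.42, without panobinostat 2 (adjusted p = 0.0554), without panobinostat 3 (0.0564) and without both 3 and 4 (0.119).

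Cdkn2d, on chromosome 9 (21288410 to 21291407, minus strand), gave 38.5, 44.99, 49.3 and 60.5 CPM with vehicle and 42.5, 46.0, 43.5 and 44.3 CPM with panobinostat. The treated tumours fell inside the vehicle range. The log2 change was -0.11 (SE 0.14, adjusted p = 0.486, limma), and its 95% interval of -0.42 to 0.19 left room for a fall to 0.747-fold or a rise to 1.14-fold. The sign turned with libraries scaled to read totals (0.01). Cdkn2c rose relative to Cdkn2d within tumours: the log2 ratio was -1.04 ± 0.33 with vehicle and -0.50 ± 0.06 with panobinostat (mean ± SD, n = 4, exact permutation p = 0.0286, adjusted p = 0.0343). The call was lost when any 1 of the 4 panobinostat libraries was left out (differences of 0.52 to 0.56, against 0.54, adjusted exact permutation p = 0.0686).

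Cdkn2d was the most abundant INK4 gene per kilobase in both groups, with 69.2% ± 7.22 of the family sum with vehicle and 61.9% ± 2.65 with panobinostat (mean ± SD, n = 4). Cdkn2c followed with 19.7% ± 2.75 and 25.7% ± 0.695. Cdkn2a held 9.57% ± 4.86 and 4.86% ± 1.31, and Cdkn2b 1.47% ± 0.734 and 7.63% ± 1.93. The largest fold change of the list thus belonged to the least abundant INK4 gene of the vehicle tumours, and the family sum stayed at 44.4 ± 7.79 and 45.3 ± 2.07 CPM per kb.

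**Figure D3:**
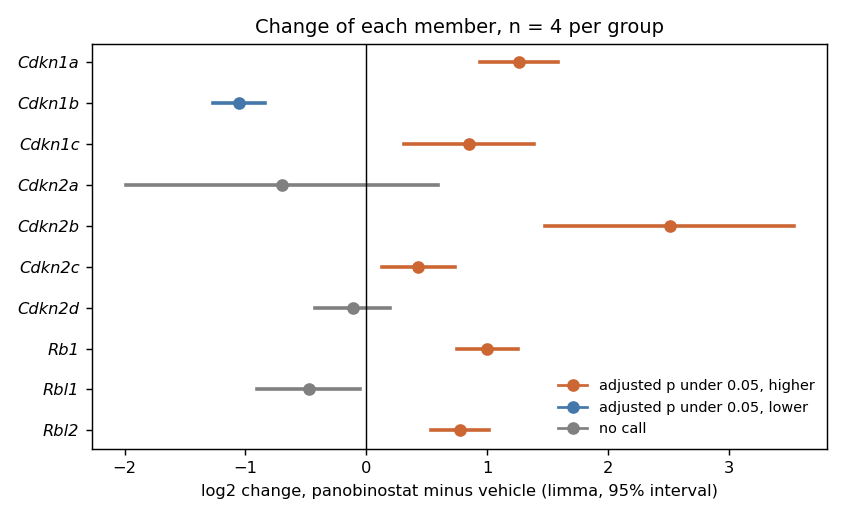
Log2 change of each member with its 95% interval (limma, n = 4 per group), coloured by call. Cdkn2b has the largest estimate (2.51) and a wide interval, Cdkn1b lies at -1.06, and the intervals of Cdkn2a and Cdkn2d include 0.

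Of the pocket protein genes, those of pRB and p130 rose and that of p107 did not. Rb1, on chromosome 14 (73183673 to 73325822, minus strand), encodes pRB, the tumour suppressor that binds the activating E2F proteins. It stood at 60.4, 52.7, 62.4 and 49.2 CPM with vehicle and 100.2, 124, 117 and 108 CPM with panobinostat. The treated tumours all lay well above the vehicle tumours. The increase was 2.00-fold (95% interval 1.68 to 2.38, log2 change 1.00, SE 0.11, adjusted p = 6.05e-05, limma). Lpar6 sits within Rb1 and Rcbtb2 overlaps it, both on the opposite strand, and use of strand in counting is not given in the sources used here. Lpar6 rose as Rb1 did (log2 change 1.87, SE 0.48), whereas Rcbtb2 fell (-0.66, SE 0.15). Read counts of Lpar6 were 46 to 236 (vehicle) and 202 to 416 (panobinostat), beside 1042 to 1408 and 2125 to 2440 for Rb1. The part of reads from either overlapping gene in the Rb1 change was not tested.

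Rbl2, on chromosome 8 (91070057 to 91123844, plus strand), encodes p130, the pocket protein of resting cells that joins E2F4 and the MuvB core in the DREAM repressor complex. Its level was 41.6, 33.3, 33.2 and 31.8 CPM with vehicle and 60.3, 60.9, 57.7 and 59.4 CPM with panobinostat. The 4 treated tumours were nearly equal (SD 0.03 in log2 CPM) and all above vehicle 1, the highest of the vehicle group. Rbl2 rose 1.71-fold (95% interval 1.45 to 2.02, log2 change 0.78, SE 0.11, adjusted p = 2.09e-04, limma). It did not pass a test against a 1.5-fold change (adjusted p = 0.139). Aktip, which overlaps Rbl2 on the opposite strand, rose by a like amount (0.80, SE 0.09), and reads of the 2 genes in the overlap cannot be told apart without strand.

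Rbl1, on chromosome 2 (157145893 to 157204534, minus strand), encodes p107, whose gene is itself an E2F target and is expressed in cycling cells. It gave 53.7, 46.4, 40.8 and 27.4 CPM with vehicle and 30.02, 28.2, 29.7 and 29.7 CPM with panobinostat. The treated tumours were again close to each other (SD 0.04 in log2 CPM), and vehicle 4 lay below all 4 while the other vehicle tumours lay above them. The log2 change of -0.48 (SE 0.19, 95% interval -0.90 to -0.05) just missed the threshold (adjusted p = 0.0502, limma). Rbl1 was lower past the threshold without vehicle 4 (-0.67, adjusted p = 0.00109, limma), and with median centring (-0.59, adjusted p = 0.0205) and library weights (-0.63, adjusted p = 7.90e-04), while scaling to read totals gave -0.36 (adjusted p from 7.90e-04 to 1.00 over all alternatives).

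Within tumours, both other pocket protein genes rose relative to Rbl1. The log2 ratio of Rbl2 to Rbl1 was -0.23 ± 0.31 with vehicle and 1.02 ± 0.06 with panobinostat, and that of Rb1 to Rbl1 was 0.45 ± 0.33 and 1.93 ± 0.17 (mean ± SD, n = 4, each with exact permutation p = 0.0286, adjusted p = 0.0343). These are shifts of 2.38-fold and 2.79-fold. Per kilobase, Rbl1 went from 33.0% ± 4.74 to 15.6% ± 1.19 of the family sum, Rb1 from 44.8% ± 3.91 to 59.3% ± 2.50, and Rbl2 from 22.2% ± 1.96 to 25.1% ± 1.41. The sum itself was 21.0 ± 3.10 CPM per kb with vehicle and 31.5 ± 1.62 with panobinostat.

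**Figure D4:**
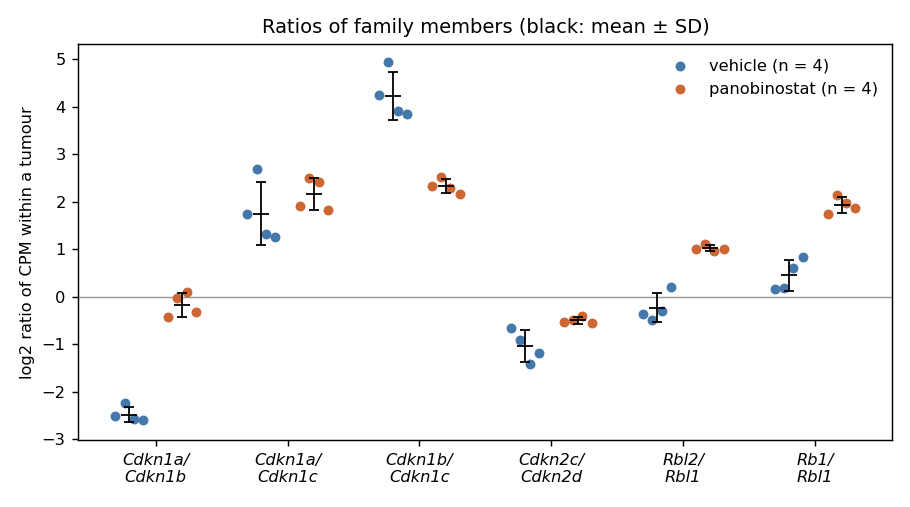
Log2 ratio of 2 members of a family within each tumour (vertical axis), 1 point per library, with mean ± SD in black (n = 4 per group). The groups are apart for every pair except Cdkn1a to Cdkn1c, where the treated range lies inside the vehicle range.

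Ranked per kilobase, the members changed order between the groups. In vehicle tumours Cdkn1b (41.3 ± 1.90 CPM per kb) and Cdkn2d (30.7 ± 5.88) led, followed by Cdkn1a (9.50 ± 1.29), Rb1 (9.34 ± 1.04) and Cdkn2c (8.69 ± 1.31), whose ranges overlapped. Rbl1 (7.02 ± 1.85), Cdkn1c (5.07 ± 1.57), Rbl2 (4.63 ± 0.593) and Cdkn2a (4.35 ± 2.39) came next, again with overlapping ranges. The highest vehicle tumour for Rbl1 (8.97) also passed the lowest for Cdkn1a (8.29), Rb1 (8.18) and Cdkn2c (6.83). Cdkn2b was last (0.659 ± 0.359), although its highest tumour passed the lowest for Cdkn2a. In treated tumours Cdkn2d led (28.0 ± 0.927). Cdkn1a (22.8 ± 3.58), Cdkn1b (19.9 ± 2.15) and Rb1 (18.7 ± 1.74) followed with overlapping ranges, then Cdkn2c (11.6 ± 0.681), Cdkn1c (8.81 ± 0.868), Rbl2 (7.88 ± 0.182), Rbl1 (4.90 ± 0.136), Cdkn2b (3.48 ± 0.984) and Cdkn2a (2.21 ± 0.608). Of these last 6, the ranges of Cdkn1c and Rbl2 overlapped, as did those of Cdkn2b and Cdkn2a. The lead depended on the length used: with the longest transcript Cdkn1a stood first among treated tumours (39.0 ± 6.12 CPM per kb), ahead of Cdkn2d (30.98 ± 1.03), with overlapping ranges. The spread was larger among vehicle than among treated tumours for 8 of the 10 members (log2 CPM), and the same held for 81.7% of all genes tested.

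The kinases and cyclins on which these inhibitors act changed in both directions, and all 10 measured made a call, 4 higher and 6 lower (median log2 change -1.03). Shares among all genes tested were 31.2% higher and 32.4% lower. The D-type cyclins parted. Ccnd2 rose by 2.85 (SE 0.17) and Ccnd3 by 2.10 (SE 0.14) on the log2 scale, while Ccnd1 fell by 2.36 (SE 0.16). Of their partners, Cdk4 fell by 1.25 (SE 0.15) and Cdk6 rose by 1.59 (SE 0.30). Cdk6 stayed far below Cdk4, at means of 0.72 (vehicle) and 2.31 (panobinostat) against 9.02 and 7.77 log2 CPM. Ccnd1, Cdk4 and Cdk6 were picked out with their values known. The S phase cyclin gene Ccna2 fell by 1.62 (SE 0.10).

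Downstream of the pocket proteins, 7 of 10 E2F and DP genes fell and 1 rose (median -1.16). This count and those of the MuvB and E2F target lists below stand beside 32.4% lower and 31.2% higher among all genes tested. Tfdp1, the main DP partner of E2F proteins, fell by 1.23 (SE 0.08), and the activators E2f3 and E2f2 changed by -1.24 (SE 0.09) and -1.43 (SE 0.11). E2f4, the usual partner of p130, was the one that rose (0.31, SE 0.10), and it was picked out with its value known. No gene of this list rose without vehicle 1, vehicle 3, panobinostat 1, panobinostat 3 or both panobinostat 3 and 4, or with median centring. Of 6 genes of the MuvB core with B-MYB, 3 fell and 1 rose: Lin9 (-1.94, SE 0.15), Mybl2, which encodes B-MYB (-1.80, SE 0.15), and Rbbp4 (-0.67, SE 0.11) were the 3. None of these 6 rose without panobinostat 4, without both panobinostat 3 and 4, or with quantile normalization. At an adjusted p under 0.01, or tested against a 1.5-fold change, no gene of the MuvB or the E2F and DP list rose. Of 20 E2F target genes of replication 18 fell and 0 rose (median -1.15), and the smallest adjusted p-values were those of the ribonucleotide reductase genes Rrm2 (-2.12, SE 0.12) and Rrm1 (-1.41, SE 0.10) and the helicase gene Mcm3 (-1.56, SE 0.11).

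Genes whose products mark p27, p21 and p57 for breakdown were lower in 7 of 9 cases, with 0 higher (median -0.55). Among all genes tested 32.4% were lower and 31.2% higher. The count of lower genes was 4 when tested against a 1.5-fold change, 9 with median centring, and 6 or 7 when single libraries were left out. The scaffold gene Cul1 of the SCF ligase fell by 1.26 (SE 0.08), Cks1b, the cofactor that lets SKP2 grip p27, by 1.12 (SE 0.11), and Dtl, the adaptor that directs the CUL4 ligase to p21, by 1.30 (SE 0.14). Protein was not measured.

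Of 14 known regulators of the Cip/Kip genes, 5 were higher and 5 lower (median -0.18), shares near the 31.2% and 32.4% of all genes tested. Smad3, the TGF-beta effector, rose by 2.02 (SE 0.19) and Foxo1, an activator of Cdkn1b in resting cells, by 2.58 (SE 0.32). The part of other cell types in both rises was not tested. Zbtb17 encodes MIZ1, through which MYC proteins hold Cdkn1a and Cdkn2b silent, and fell by 1.09 (SE 0.14). Leaving out single libraries lowered the count of higher genes to 2 (without vehicle 3 or 4 or panobinostat 1 or 2) or 3 (without panobinostat 3). Of 15 other targets of p53, 8 rose, 1 fell and 6 made no call (median 0.62), beside 31.2% higher and 32.4% lower among all genes tested. The antiproliferative gene Btg2 rose by 1.51 (SE 0.13) and the BH3-only gene Pmaip1 by 3.22 (SE 0.28). The stress gene Sesn2 rose by 2.27 (SE 0.23). Zmat3 was the 1 that fell (-0.91, SE 0.12), and Mdm2 (-0.12) and Bax (-0.11) were among the 6 without a call. Trp53 itself fell by 0.79 (SE 0.16). Zmat3, Mdm2, Bax and Trp53 were picked out with their values known.

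Polycomb and demethylase genes that act at the Cdkn2a and Cdkn2b locus were lower in 6 of 10 cases and higher in 3 (median -0.47). Bmi1, a Polycomb gene known for silencing this locus, fell by 1.84 (SE 0.16). Ezh2, the methyltransferase of the same system, fell by 1.12 (SE 0.09), and Kdm6b, a demethylase that relieves it, by 1.21 (SE 0.13). The 3 that rose were Cbx7 (1.68, SE 0.24), Cbx8 (1.19, SE 0.29) and Eed (0.41, SE 0.10), picked out with their values known. Over all genes tested 31.2% rose and 32.4% fell. Without panobinostat 3 and 4, 4 of the 10 were lower and 1 was higher. Of 9 tested genes from the imprinted region around Cdkn1c, 4 were higher and 2 lower (median 1.18), beside the same 31.2% and 32.4%. Of the 4, Slc22a18 (4.78, SE 0.86) passed the filter through the treated group, at a vehicle mean of -2.85 log2 CPM. It was picked out with its value known. Cd81 rose by 1.21 (SE 0.11) and Igf2, the growth factor gene expressed by mesenchymal cells, by 3.19 (SE 0.48). The chaperone gene Nap1l4 fell by 0.81 (SE 0.12).

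**Figure D5:**
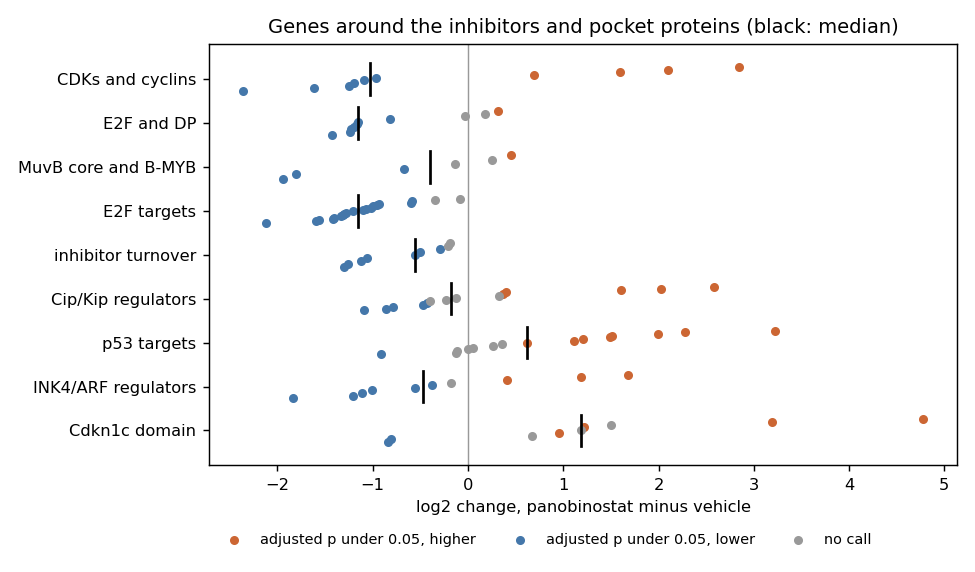
Log2 change of each tested gene in the lists around the inhibitors and pocket proteins (horizontal axis), coloured by call, with list medians in black. All 20 E2F targets lie below 0, with a median of -1.15, whereas CDK and cyclin genes spread from Ccnd1 at -2.36 to Ccnd2 at 2.85.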

How the data were processed

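Whole tumours of 8 mice were profiled by RNA sequencing, 1 library per animal, and groups were taken from the labels. TopHat2, HTSeq, CASAVA 1.8.2 and limma, with build mm10, are listed without roles, per the submitters' processing notes. Annotation, scaling and strand use were not given in the sources used here. The deposited log2 values are log2 CPM with 0.5 reads added, scaled to a library size that differed from the read total of the listed genes. That size was on average 0.94 of the read total with vehicle (SD 0.04) and 1.02 with panobinostat (SD 0.01). All values came back as whole reads within 0.001 read, and reads quoted are these. From the deposited values, genes at 1 CPM or more in at least 4 libraries (16157 of 17488) were fitted in limma 3.58.1 under R 4.3.3 (lmFit, then eBayes with trend, no covariate, two-sided). P-values were adjusted over all genes tested (Benjamini-Hochberg, threshold 0.05), and the fit was tested on simulated data.

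Ratios of 2 members within a tumour were compared by exact permutation over 70 assignments, adjusted over 6 ratios. Levels were divided by the length of all annotated exons (GENCODE M21, the assembly of mm10) only where genes are compared. Promoter sequences are from RefSeq (GRCm38.p6). Symbols came from a reference table matched by gene identifier, and 17228 identifiers had one. Members and gene lists were chosen with earlier results of these data known. Of other genes, those named are the 3 with the smallest adjusted p in each pathway list and the 2 nearest in profile to each member (1 of these is not reported here), and any gene beyond these was named after its values were seen. Alternatives covered filters, variance settings, library weights, scaling, a pseudocount of 1 CPM, thresholds, transcript length, and leaving out single libraries or panobinostat libraries 3 and 4. The samples carry no number that pairs them across groups.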

Additional observations from a re-analysis of the deposited data

Results flagged for a closer look

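In 2 of 20 groups of 4 values, 1 tumour stood apart from the others by Dixon's test at the 95% level, and chance gives about 1 such group in 20. For Cdkn2a, vehicle 3 (24 reads against 123 to 160) was the low tumour, and its gap to the next was 0.859 of the range of the group. For Rbl2, vehicle 1 (41.6 CPM against 31.8 to 33.3) was the high tumour, with a gap of 0.83 of the range. Without vehicle 1 the log2 change of Rbl2 was 0.86, against 0.78 with it, and without vehicle 3 that of Cdkn2a was -1.34, against -0.70.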

How the results depend on the processing

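Of the members, Cdkn1a, Cdkn1b, Cdkn2b and Rb1 kept their direction and call under every alternative in which they were tested; 5 CPM as a minimum left Cdkn2a and Cdkn2b untested. The count of members that rose was 3 when tested against a 1.5-fold change, and 5 to 6 when single libraries were left out. The count that fell was 2 with a minimum of 5 CPM, robust variance, library weights, quantile normalization or median centring, and 1 to 2 when single libraries were left out. Cdkn2d turned above 0 with scaling to read totals (0.0053) and without vehicle 4 (0.0010). Leave-one-out log2 changes of Cdkn2d ran from -0.22 to 0.0010. Without panobinostat 3 and 4 no ratio could pass after adjustment, since 4 tumours against 2 allow few assignments: the differences were 2.26 (Cdkn1a to Cdkn1b), -1.80 (Cdkn1b to Cdkn1c), 0.53 (Cdkn2c to Cdkn2d), 1.29 (Rbl2 to Rbl1) and 1.49 (Rb1 to Rbl1). With single libraries left out, the Cdkn2c to Cdkn2d difference was 0.42 to 0.68 (adjusted p to 0.0686, exact permutation). Relative to the fit as reported, the median of all genes moved by 0.12 when libraries were scaled to read totals, -0.10 under quantile normalization and -0.12 under median centring. No paired analysis was possible because the labels give the groups no shared replicate numbers. Counts of Cdkn2b (7 to 121 reads) and Cdkn2a (24 to 160 reads) limit the precision of both.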

Other observations

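For each member the tested genes with the most similar profile over the 8 libraries were sought, by the root mean square distance between log2 values centred on each gene's mean. Close to Cdkn1a lay Rab31, a small GTPase gene of vesicle transport (distance 0.13). Those nearest to Cdkn1b were the processed pseudogene Gm10254 (0.05) and Farp1 (0.08), a gene of dendrite growth. Rb1 lay nearest to Txndc16 and Atp6ap2 (both 0.08), Rbl2 to the kinase gene Rps6ka5 (0.05) and the deubiquitinase gene Usp8 (0.07), and Rbl1 to Vps54 (0.07) and Sp3 (0.08), which encodes a reader of GC boxes. Cdkn2c lay nearest to Blcap and Wdr91 (both 0.06), Cdkn2d to Cabin1 and Srprb (both 0.05) and Cdkn1c to the Mediator subunit gene Med20 (0.09) and Gpr107 (0.12). The variable genes had no profile as near: Cdkn2b was closest to Gm6977 (0.25) and Cd83 (0.29), and Cdkn2a to Dcaf12l1 (0.38) and Gpihbp1 (0.40). These are descriptions over 8 libraries that share the group difference.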
